A study of Mus musculus with 12 samples.

Results

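The genes of cholesterol synthesis and of its control by the sterol regulatory element-binding proteins (SREBPs) were examined in mouse pre-megakaryocyte/erythroid progenitors (PreMegEs). The 28 members were taken by gene name from a count table of 41128 genes. They comprise 18 enzymes of the pathway, 5 genes of the SREBP sensor, the intracellular sterol carrier Stard4, the efflux transporters Abca1 and Abcg1, and the liver X receptor genes Nr1h2 and Nr1h3. Each member had 1 row in the table.

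RNA-Seq had been carried out on PreMegEs of 12 to 16 week old C57BL/6 mice in 4 groups of 3 libraries, each library from 3 pooled mice. WT PreMegEs came from wild type mice and were not fractionated. P2+ and P2- PreMegEs came from Runx1 P1-GFP::P2-hCD4/+ mice, in which GFP reports the distal promoter P1 of Runx1 and a truncated human CD4 reports the proximal promoter P2, and were split by the hCD4 reporter. Both fractions were P1-GFP+ and carried the reporters on 1 Runx1 allele, which the WT mice did not. The paper treats the reporter mice as haploinsufficient for Runx1. In the comparisons with WT, sorted fraction and Runx1 dose therefore cannot be told apart. KO PreMegEs came from RUNX1C knockout mice, where GFP replaces the P1 product and P2 is intact. Whether the KO libraries were processed together with the others is not given, so genotype and any batch cannot be told apart. The P2+, P2- and KO comparisons with WT share the same WT libraries.

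Libraries held between 10726098 and 14445026 counts. Levels are given as CPM, the count as a rate over the library total scaled by TMM. A gene at 0 counts may have had up to 3, worth between 0.207 and 0.288 CPM, a bound for counting error only. Kit, the receptor by which PreMegEs are sorted, was between 732 and 1156 CPM in the 12 libraries, and Gata1, a shared megakaryocyte and erythroid factor, between 176 and 291 CPM. Both had lower means in P2+ than in P2-. Kit was at 813 ± 74.3 CPM (SD, n = 3) in P2+ and 1059 ± 130 in P2-, and Gata1 at 184 ± 11.7 and 271 ± 15.7. Emr1, which marks macrophages, was at 0 in all P2-, KO and P2+ libraries and at no more than 0.277 CPM in WT. C1qa, another macrophage gene, was detected in each group, at no more than 0.349 CPM in KO, 0.565 in P2-, 1.32 in WT and 1.73 in P2+. Cd3e, which marks T cells, was at no more than 0.591 CPM. Runx1 itself was at 369 ± 15.6 CPM (SD, n = 3) in WT, 211 ± 7.41 in P2-, 631 ± 24.2 in P2+ and 359.8 ± 20.4 in KO PreMegEs. Since its count joins the products of both promoters, it does not check the KO label. The P2- and P2+ libraries numbered 2 stood apart in 12 immediate early genes, which summed to 12634 and 8411 CPM against between 192 and 1221 CPM in the other 10, and the member counts, enzyme sum, other gene lists and marker sums between P2+ and P2- are also given without both.

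Cholesterol is built from acetyl-CoA through mevalonate and isoprenoid units to squalene, which is closed into lanosterol and trimmed in several steps to cholesterol. When sterols are low in the endoplasmic reticulum membrane, SCAP carries SREBPs to the Golgi, where proteases release the part that turns on these genes, and when sterols are high the INSIG proteins hold SCAP back. Surplus sterol yields oxysterols that activate liver X receptors, which raise the efflux transporters and Srebf1.

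Every enzyme of the list had counts in all 12 libraries, and levels differed widely between genes. Levels of different genes were compared as CPM per kb of exon, averaged over the 12 libraries. Stard4 stood highest at 43.2 CPM per kb, followed by Srebf2 at 34.8, Nr1h2 at 25.8 and Srebf1 at 23.4. Of the enzymes, Hmgcs1, which condenses acetoacetyl-CoA with acetyl-CoA, was highest at 17.2 CPM per kb, followed by the isomerase gene Ebp at 14.5 and the lanosterol demethylase gene Cyp51 at 11.4. By the counts on their own rows, the least abundant enzymes per kb were Fdps at 0.388, Tm7sf2 at 0.793 and Idi1 at 1.01. For Fdps and Idi1 more reads were counted on pseudogene copies, as given below, so their rank is not settled. Nr1h3, the liver X receptor of macrophages and liver, had between 3 and 12 counts per library and was at 0.264 CPM per kb, and was not tested in any comparison.

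**Figure D1:**
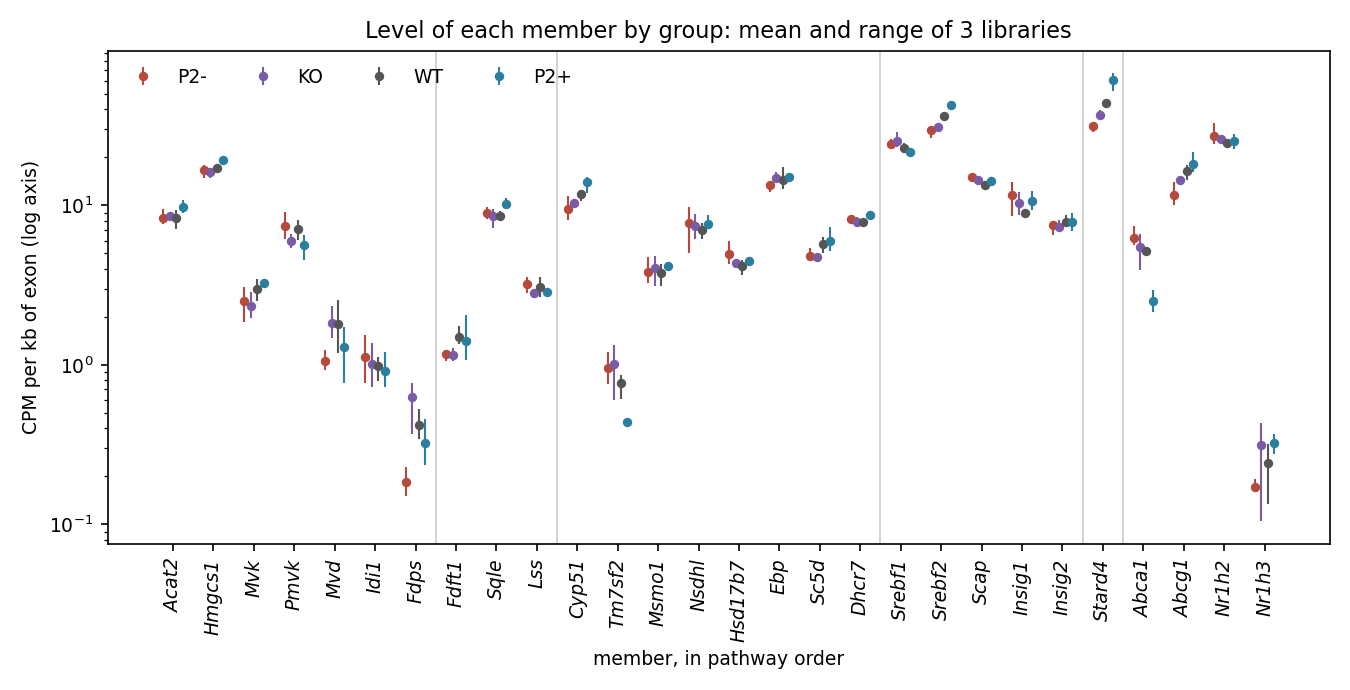
Level of each member, in CPM per kb of exon on a log axis, along the pathway in P2-, KO, WT and P2+ PreMegEs (points, mean of 3 libraries; lines, lowest to highest library). Grey lines separate the steps to farnesyl diphosphate, the steps through squalene to lanosterol, the later sterol steps, the SREBP sensor, Stard4, and the efflux and liver X receptor genes. Stard4 and Srebf2 climb from P2- to P2+, and Abca1 drops in P2+.

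Promoter sequences were read from RefSeq (GRCm38.p6, 250 bases before to 50 after each start), which held 23 of the 28 members and not Fdps, Fdft1, Sqle, Stard4 and Abcg1. Hmgcs1 is shown because it holds the core of a sterol regulatory element, the letters TCACNCCAC, searched on both strands. The sequence, chr13:119690166-119690350 on the plus strand, ends 1 base before the start. Capitals mark that element, 137 bases before the start, and 2 of its inverted CCAAT boxes (ATTGG), the motif of NF-Y, which works beside SREBPs.
Hmgcs1 promoter: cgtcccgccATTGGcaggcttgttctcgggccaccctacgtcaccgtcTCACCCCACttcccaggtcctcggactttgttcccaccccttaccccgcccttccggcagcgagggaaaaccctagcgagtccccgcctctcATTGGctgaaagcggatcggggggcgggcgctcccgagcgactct

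TCACNCCAC was found in 1 of the 23 members (4.35%), beside 1.44% of 27025 genes. CCAAT, on either strand, was found in 18 of the 23 (78.3%), beside 41.1% of all genes. No test was made of these shares, and a member without a match only lacks these letters in this window. Srebf2 is shown as the regulator that was higher in P2+, with its single inverted CCAAT box in capitals (chr15:82147019-82147180, plus strand, which ends 89 bases before the RefSeq start).
Srebf2 promoter: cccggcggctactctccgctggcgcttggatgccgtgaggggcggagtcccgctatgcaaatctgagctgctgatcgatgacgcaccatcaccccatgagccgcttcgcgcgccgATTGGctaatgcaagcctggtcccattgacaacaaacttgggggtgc

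A direct repeat spaced by 4 bases, of the kind that liver X receptors bind, was searched as GGTNA repeated after 5 free bases and was found in 2 of the 23 members (8.70%) on either strand, beside 0.818% of all genes. These were Abca1, 67 bases before its start, and a downstream start of Srebf1, 182 bases before it. The 2 stretches, chr4:53159896-53160015 and chr11:60210571-60210686 on the minus strand, have the repeat, which reads on the opposite strand, in capitals.
Abca1 promoter: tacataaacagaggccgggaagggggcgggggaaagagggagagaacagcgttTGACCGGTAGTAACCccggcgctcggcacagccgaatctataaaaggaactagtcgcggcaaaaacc
Srebf1 promoter: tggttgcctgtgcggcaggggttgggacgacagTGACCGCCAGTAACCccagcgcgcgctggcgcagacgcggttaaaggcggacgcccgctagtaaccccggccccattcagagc

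An intron of Srebf2 also holds the gene of a microRNA, Mir33, whose mature 5p form (chr15:82198127-82198147, plus strand) is shown since it is known to pair with the transcripts of Abca1. Capitals mark its seed, bases 2 to 8.
mmu-miR-33-5p: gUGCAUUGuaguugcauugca
The poly(A) libraries do not measure it, and its row was at 0 counts in all 12. Matches to the seed, CAATGCA, were counted in the longest annotated transcript end of each gene after the stop codon. Abca1 held 3, Abcg1 2 and Nsdhl 1, and the other 25 members held 0. Of 21037 genes 7.11% held at least 1 match and 15 genes held 3 or more. The 3 matches of Abca1, of which the first and second overlap, lie within bases 128 to 157 after the stop codon and are in capitals.
Abca1 sites: cactattCAATGCAATGCActtCAATGCAa

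P2+ and P2- PreMegEs were compared first. Of the 28 members 26 were abundant enough to be tested (1 CPM or more in 3 or more of the libraries compared), and 6 differed at an adjusted p under 0.05, of which 4 were higher in P2+ and 2 lower. Srebf2, Stard4, Cyp51 and Abcg1 were higher, and Abca1 and Tm7sf2 were lower. In sorted bulk samples, fewer cells of a type and less RNA per cell cannot be told apart. Over all 12836 genes tested, 37.1% differed, 20.1% being higher and 17.0% lower, beside 6 of the 26 members (23.1%). With the library number as a block, 6514 of the 12836 genes differed, and 5 members were higher and 2 lower, beside 25.9% and 24.8% of all genes. Requiring a change of at least 2-fold as well left 0 members higher and 2 lower, Abca1 and Tm7sf2, beside 12.7% of all genes (9.54% higher and 3.13% lower). The libraries of P2+ and P2- did not overlap in 12 of the 26 members, and in 49.9% of all genes. The median log2 fold change (P2+ minus P2-) was 0.12 over the members and -0.02 over all genes tested. Without both libraries numbered 2, 6 members were higher (Hmgcs1 and Sc5d were added, with adjusted p = 0.0352 and 0.0378) and only Abca1 was lower, beside 20.3% and 16.8% of the 12271 genes tested in that fit.

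**Figure D2:**
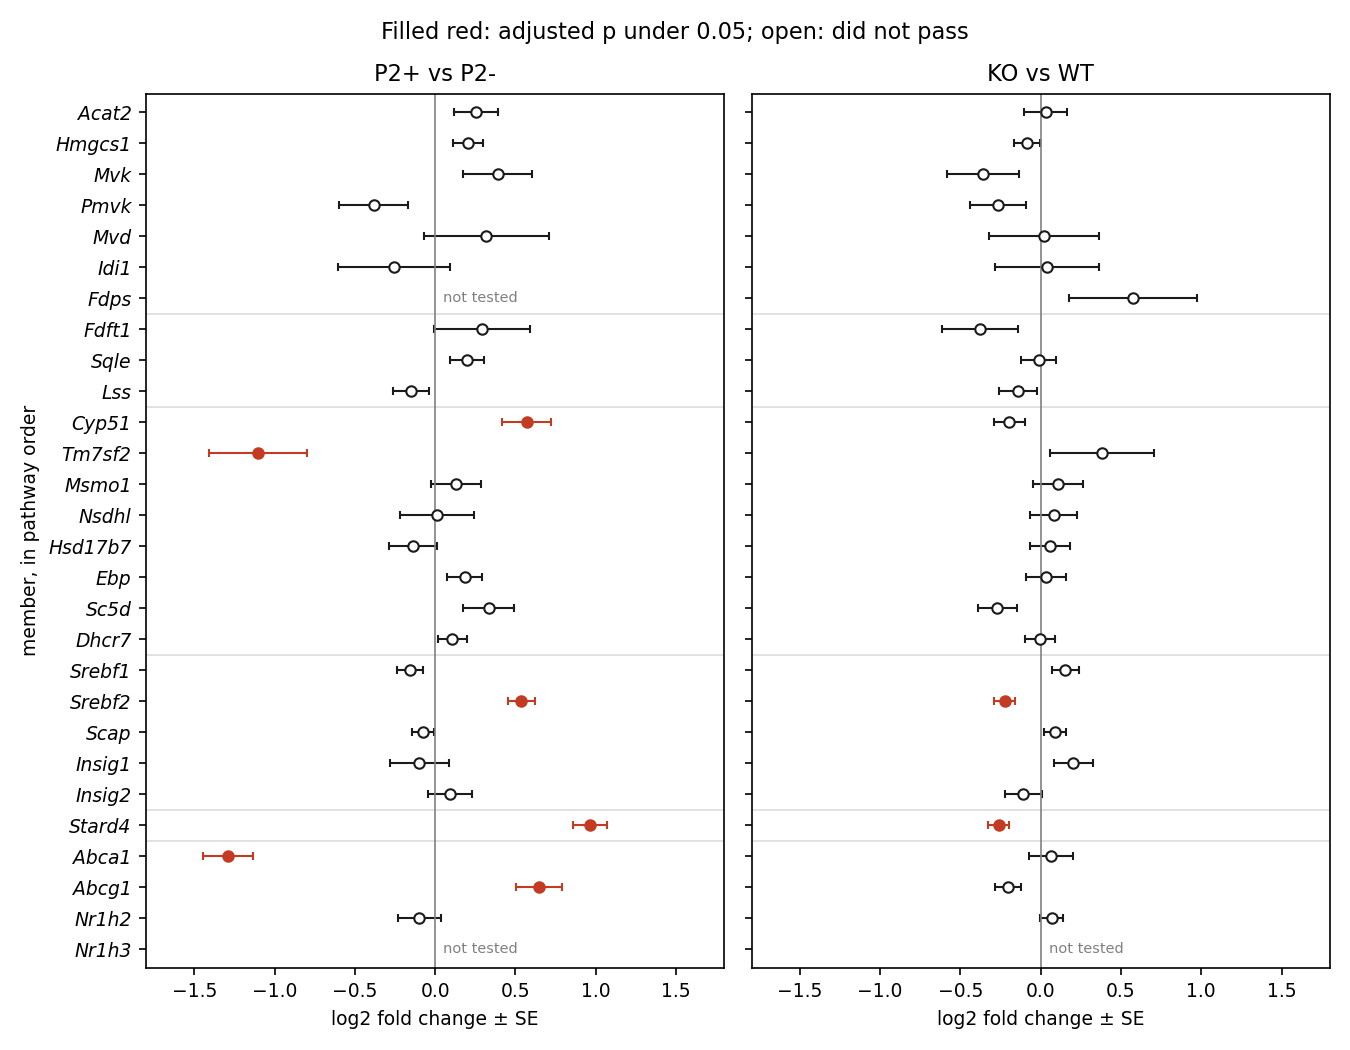
Log2 fold change of each member with its SE, in P2+ against P2- (left) and KO against WT PreMegEs (right), with members in pathway order. Fdps (left) and Nr1h3 (both) were not tested. Filled red points passed an adjusted p under 0.05 and open points did not. On the left 6 members are filled and on the right Srebf2 and Stard4, each on the opposite side of 0 from its place on the left.

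None of the genes from acetyl-CoA to farnesyl diphosphate passed the test between P2+ and P2-. Of 7 listed, 6 were tested with edgeR and 0 passed after adjustment, beside 20.1% of all genes higher and 17.0% lower. At an unadjusted p under 0.05 there were 0, beside 24.1% higher and 22.1% lower. DESeq2 called 0, beside 20.7% higher and 17.7% lower. So few genes allow little to be read from these counts. Hmgcs1 was at 87.8 ± 5.25 CPM (SD, n = 3) in P2+ and 76.9 ± 7.42 in P2-. Its libraries nearly touched, with the lowest P2+ library at 82.1 CPM and the highest P2- library at 81.6. Its log2 fold change of 0.20 (SE 0.09) had an adjusted p of 0.121, which became 0.0423 with the replicate number as a block. Acat2, the cytosolic thiolase that makes acetoacetyl-CoA, was between 22.7 and 27.3 CPM in P2+ and between 19.5 and 24.0 in P2-. Mvk, which phosphorylates mevalonate, was between 8.38 and 9.11 CPM in P2+ and between 4.99 and 8.20 in P2-. Pmvk, the next kinase, had its lower mean in P2+, with overlapping libraries of 7.80 to 11.2 CPM in P2+ and 10.6 to 15.6 in P2-. Mvd, the decarboxylase that makes isopentenyl diphosphate, was at no more than 4.73 CPM in any library.

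The steps through squalene to lanosterol did not pass either (0 of 3 with edgeR, beside 20.1% of all genes higher and 17.0% lower). At an unadjusted p under 0.05 there were 0, beside 24.1% higher and 22.1% lower. DESeq2 called 0, beside 20.7% higher and 17.7% lower. With 3 genes these counts say little. Sqle, the epoxidase that acts on squalene, was at 56.8 ± 4.49 CPM in P2+ and 49.8 ± 4.29 in P2-. Lss, the cyclase that forms lanosterol, was at 30.9 ± 0.419 CPM in P2+ and 34.6 ± 3.88 in P2-.

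Of the 8 enzymes that act after lanosterol, Cyp51 was higher and Tm7sf2 lower in P2+. Cyp51 (ENSMUSG00000001467, chr5:4081145-4104746, minus strand), which removes a methyl group from lanosterol and is the first of these steps, was at 65.7, 66.5 and 52.4 CPM in P2+ libraries 1, 2 and 3, and at 39.0, 50.7 and 35.9 in P2-. WT libraries overlapped those of both fractions, at 47.3, 55.2 and 52.9 CPM, and KO libraries were at 46.3, 43.1 and 47.0. P2+ was higher in each pair of libraries of the same number, and the fractions did not overlap. The log2 fold change of P2+ over P2- was 0.57 (SE 0.15, adjusted p = 0.0179), with an adjusted p of 0.000144 with the replicate number as a block. In the fit with no block it did not pass when P2- library 1 (adjusted p = 0.0628), P2- library 3 (0.0695) or P2+ library 1 (0.0606) was left out.

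Tm7sf2 (ENSMUSG00000024799, chr19:6062821-6068373, minus strand) encodes a sterol C14-reductase, which takes the product of CYP51. Its P2+ libraries were at 1.93, 1.93 and 1.91 CPM and its P2- libraries at 3.98, 5.28 and 3.32. In WT it was at 2.70, 3.72 and 3.79 CPM, and in KO at 4.89, 2.65 and 5.82. All P2+ libraries were below every other library, at between 23 and 28 counts. The log2 fold change was -1.10 (SE 0.30, adjusted p = 0.0202). It did not pass without P2- library 2 (adjusted p = 0.0730), P2+ library 1 (0.0580), P2+ library 3 (0.0582) or both libraries numbered 2 (0.102). Exons of Vps51 on the same strand cover 12.1% of its exonic bases, so part of the reads there cannot be assigned to 1 gene.

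The other 6 of these enzymes were not past the threshold. Dhcr7, which reduces the double bond at carbon 7, was between 50.0 and 51.3 CPM in P2+ and between 45.7 and 49.0 in P2-. Sc5d, the desaturase before it, was at 29.2 ± 5.62 CPM in P2+ and 23.4 ± 2.65 in P2- (log2 fold change 0.33, SE 0.16, adjusted p = 0.137). Ebp was at 34.9 ± 1.56 CPM in P2+ and at no more than 32.7 in P2-, with no overlap. Msmo1 and Nsdhl, which remove the methyl groups at carbon 4, and the ketoreductase gene Hsd17b7 had overlapping libraries. Over the 18 enzymes together, the sum was 480 ± 19.1 CPM in P2+, 432 ± 30.5 in P2-, 441 ± 20.4 in WT and 426 ± 30.4 in KO PreMegEs. The sum in P2+ was 1.11 times that in P2-, and its lowest library (466 CPM) lay just above the highest P2- library (462 CPM). Without both libraries numbered 2 the ratio was 1.16, and the highest P2- library was at 434 CPM. The sum was not tested.

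**Figure D3:**
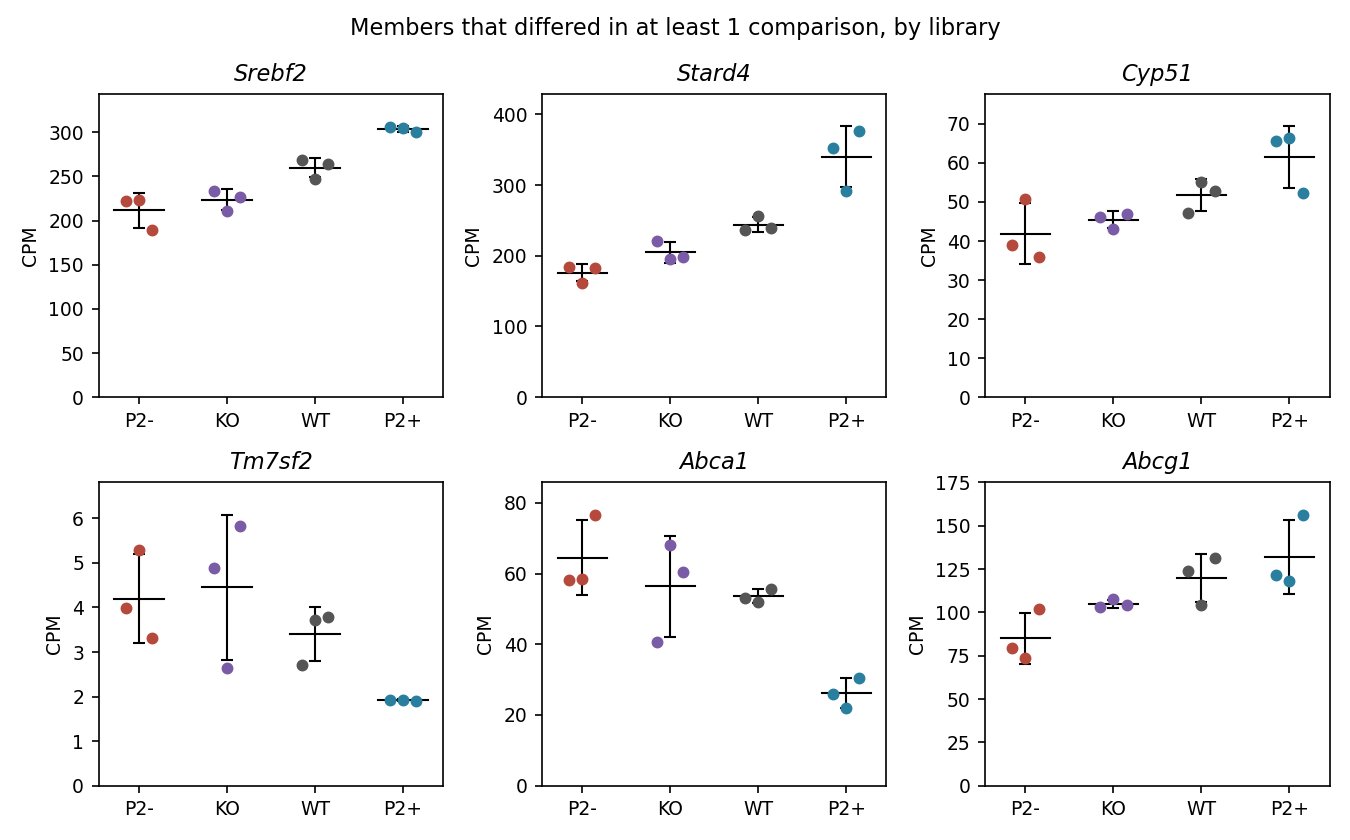
CPM of the 6 members that passed in at least 1 comparison, in each library of P2-, KO, WT and P2+ PreMegEs (points), with the mean (bar) and SD (whiskers) of 3 libraries. In Srebf2 and Stard4 the 3 P2+ libraries are above all others, and in Abca1 and Tm7sf2 they are below all others.

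In the SREBP sensor, Srebf2 was higher in P2+, and the other 4 genes did not pass. Srebf2 (ENSMUSG00000022463, chr15:82147181-82205379, plus strand, GRCm38), whose exons the counts cover, encodes the SREBP that acts mainly on cholesterol genes. It was at 306, 305 and 299.9 CPM in the 3 P2+ libraries, and at 222, 223 and 189 in P2-. The WT libraries were at 268, 248 and 264 CPM and the KO libraries at 234, 210.3 and 227. P2+ libraries thus stood above all 9 others, with a spread of 1.10% of their mean. The log2 fold change of P2+ over P2- was 0.54 (SE 0.08, 1.45-fold, adjusted p = 0.0013), and it passed in all 15 alternatives tried, at between 0.46 and 0.59.

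Srebf1, which encodes the SREBP linked mainly to fatty acid synthesis, had its lowest mean in P2+. Its P2+ libraries were at 117, 116 and 129 CPM and its P2- libraries at 146, 133 and 129. In WT it was at 125, 119.8 and 139 CPM and in KO at 136, 131 and 163. The P2+ and P2- libraries nearly touched, and the log2 fold change of -0.16 (SE 0.08) did not pass (adjusted p = 0.153).

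Scap, the escort protein that senses sterol, was among the abundant members. It was at 101, 108 and 108 CPM in P2+, at 115, 111 and 112 in P2-, at 96.5, 99.9 and 104 in WT, and at 109, 103 and 109 in KO. P2+ differed from P2- by -0.08 on the log2 scale (SE 0.07, adjusted p = 0.407). Insig1, itself a classical target of the SREBPs, was between 28.7 and 37.8 CPM in P2+ and between 26.6 and 43.3 in P2-. Insig2 was between 24.1 and 31.3 CPM in P2+ and between 22.8 and 27.8 in P2-. For Insig1 and Insig2 the libraries of the fractions overlapped.

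Stard4 (ENSMUSG00000024378, chr18:33199355-33213862, minus strand), a small soluble protein that moves cholesterol between membranes, had the largest increase of the members. It was at 353, 292 and 376 CPM in P2+ and at 184, 162 and 183 in P2-. The WT libraries were at 237, 257 and 239 CPM and the KO libraries at 222, 195 and 198, so the groups P2-, KO, WT and P2+ formed 4 steps, with no overlap between any neighbouring pair. The log2 fold change of P2+ over P2- was 0.96 (SE 0.11, 1.95-fold, adjusted p = 0.0002), and it passed in all 15 alternatives, at between 0.89 and 1.07.

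The efflux transporters moved in opposite directions. Abca1 (ENSMUSG00000015243, chr4:53030787-53159895, minus strand), which passes cholesterol to lipid-poor apolipoproteins, was at 25.8, 22.1 and 30.5 CPM in P2+ and at 58.2, 58.5 and 76.7 in P2-. In WT it was at 53.2, 51.9 and 55.7 CPM, and in KO at 40.6, 68.2 and 60.3. Every P2+ library was lower than every other library. The log2 fold change of P2+ over P2- was -1.29 (SE 0.16, 2.45-fold, adjusted p = 0.0003), and it passed in all 15 alternatives, at between -1.41 and -1.15.

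Abcg1 (ENSMUSG00000024030, chr17:31057675-31117988, plus strand), which passes cholesterol to mature lipoprotein particles, was at 122, 118 and 156 CPM in P2+ and at 79.4, 73.8 and 102 in P2-. In WT it was at 124, 104 and 131 CPM and in KO at 103, 108 and 104. The P2+ libraries lay above the P2- libraries and overlapped those of WT. The log2 fold change of P2+ over P2- was 0.65 (SE 0.14, 1.57-fold, adjusted p = 0.0076), and it passed in all 15 alternatives, at between 0.51 and 0.79. Nr1h2, the ubiquitous liver X receptor gene, was at 84.9 ± 8.95 CPM in P2+ and 91.7 ± 16.4 in P2- and did not pass (adjusted p = 0.603).

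The fractions were then set against WT PreMegEs, the unfractionated population of mice without the reporters. Between P2+ and WT, 27 members were tested, 1 was higher (Stard4) and 1 lower (Abca1), beside 16.5% of the 12941 genes tested, of which 9.45% were higher and 7.07% lower. Stard4 had a log2 fold change of 0.48 (SE 0.10, adjusted p = 0.0070) and Abca1 one of -1.03 (SE 0.12, adjusted p = 0.0004), the only member past 2-fold (3.84% of all genes, 2.16% higher and 1.68% lower). Libraries of P2+ and WT did not overlap in 6 members, and in 35.5% of all genes. For Srebf2 the value was 0.23 (SE 0.07, adjusted p = 0.0522), and it passed with DESeq2 (adjusted p = 0.0171), with the 12 libraries in 1 fit (0.0386) and with upper-quartile scaling (0.0499).

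Between P2- and WT, 27 members were tested, 0 were higher and 3 lower, beside 6.85% of the 12767 genes higher and 9.60% lower (16.5% in all). No member both passed and exceeded 2-fold, against 4.68% of all genes (0.572% higher and 4.10% lower), and libraries did not overlap in 7 members and in 35.1% of all genes. At an unadjusted p under 0.05, 3 members were higher and 5 lower, beside 14.7% and 15.8% of all genes, and DESeq2 called 0 higher, beside 8.09%. The 5 include Fdps, which was abundant enough to be tested only through the WT libraries. Stard4 had a log2 fold change of -0.47 (SE 0.08, adjusted p = 0.0036), and it passed in every alternative. Abcg1 was at -0.49 (SE 0.13, adjusted p = 0.0245) and did not pass without WT library 1 (adjusted p = 0.0879), WT library 3 (0.0884) or P2- library 1 (0.0749). Srebf2 was at -0.30 (SE 0.09, adjusted p = 0.0424), and lost its call when any of the WT libraries, P2- library 1 or P2- library 3 was left out (adjusted p between 0.0567 and 0.137), and in the exact test (0.131). Without P2- library 3, Insig1 was higher (adjusted p = 0.0254), and without P2- library 2 Cyp51 was lower (0.0115). Without WT library 1, WT library 3 or P2- library 1 only 1 member, Stard4, was lower.

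In all 6 members that differed between P2+ and P2- the WT mean lay between the means of the fractions. The same held for 91.1% of all genes that differed, so this order was not particular to the pathway. As a share of the distance that separates P2+ from P2-, WT had covered 41.4% for Stard4, 52.5% for Srebf2, 50.4% for Cyp51 and 74.1% for Abcg1. For the genes that were lower in P2+, it had covered 28.4% for Abca1 and 34.8% for Tm7sf2.

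KO PreMegEs were compared with WT, which asks how the members differ in the absence of RUNX1C. Of 27 members tested, 0 were higher and 2 lower in KO, beside 6.18% of the 12784 genes higher and 8.76% lower (14.9% in all). By edgeR 0 members were higher at an unadjusted p under 0.05, beside 12.5% of all genes, and DESeq2 also called 0 higher, beside 6.63%. Srebf2 and Stard4 were lower, with log2 fold changes of -0.23 (SE 0.06, 1.17-fold, adjusted p = 0.0216) and -0.26 (SE 0.07, 1.20-fold, adjusted p = 0.0120). Every KO library was below every WT library in both genes. No member was past 2-fold, against 3.41% of all genes (0.743% higher and 2.67% lower). KO and WT libraries did not overlap in 5 members, and in 31.8% of all genes.

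Both calls depended on the fit and on single libraries. With the 12 libraries in 1 fit, the adjusted p was 0.0710 for Srebf2 and 0.0846 for Stard4, and 0 members passed. Without KO library 2 or KO library 3, 0 members passed as well (adjusted p between 0.0671 and 0.115). Without WT library 1 Srebf2 did not pass (0.0648), and without WT library 2 Stard4 did not pass (0.0601), while Abcg1, at 105 ± 2.41 CPM in KO and 119.8 ± 13.9 in WT, passed there (0.0188) and not otherwise (0.111). The other enzymes and regulators had values on either side of WT, from 0.58 (SE 0.40, adjusted p = 0.393) for Fdps down to -0.38 (SE 0.24, adjusted p = 0.333) for Fdft1, and the median was 0.02 beside -0.0029 over all genes. The KO mean lay on the P2- side of the WT mean in all 6 members that differed between the fractions, and in 83.7% of all genes that did.

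The low counts of Fdps, Idi1 and Fdft1 need to be read with their processed copies. Fdps makes farnesyl diphosphate, Idi1 isomerises isopentenyl diphosphate, and Fdft1 joins farnesyl units into squalene. Fdps had between 9 and 37 counts per library, while 3 annotated pseudogenes that share its sequence had between 217 and 364. Idi1 had between 29 and 56 counts and its copy Gm13502 between 188 and 369. Fdft1 had between 49 and 126 counts and its copy Gm6781 between 201 and 363. Of the reads on gene and copies together, the gene held between 2.91% and 11.7% for Fdps, between 8.66% and 18.4% for Idi1 and between 17.4% and 25.8% for Fdft1.

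In each of these genes a library's reads were thus counted mostly on the copies, and which of them came from the gene was not tested. The count of Fdps alone was 0.771 ± 0.169 CPM in P2- and 2.65 ± 0.963 in KO. It was too low to be tested between the fractions, and between P2- and WT it was tested only because of the WT libraries. With the copies added, the log2 fold change of P2+ over P2- was 0.18 (SE 0.15) for Fdps, 0.20 (SE 0.14) for Idi1 and 0.13 (SE 0.15) for Fdft1, with adjusted p = 0.398, 0.298 and 0.543, and none of them passed in the other comparisons. By annotation 7 members overlap an exon on the other strand, Fdft1 over 18.3% of its exonic bases (Ctsb), Scap over 13.2% (5830462I19Rik), Hmgcs1 over 12.1% (Gm48342), Idi1 over 9.22% (Gm48574), Cyp51 over 3.76% (Akap9), Lss over 3.53% (4930483K19Rik) and Srebf1 over 1.93% (Rai1). Fdps overlaps Gm43738 on its own strand over 26.7% of its exonic bases. Acat2 shares 43.7% of its 31-base words with Acat3, which had between 0 and 3 counts, and 13.2% with Tcp1, which had between 2544 and 3694 counts beside 203 to 340 for Acat2.

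**Figure D4:**
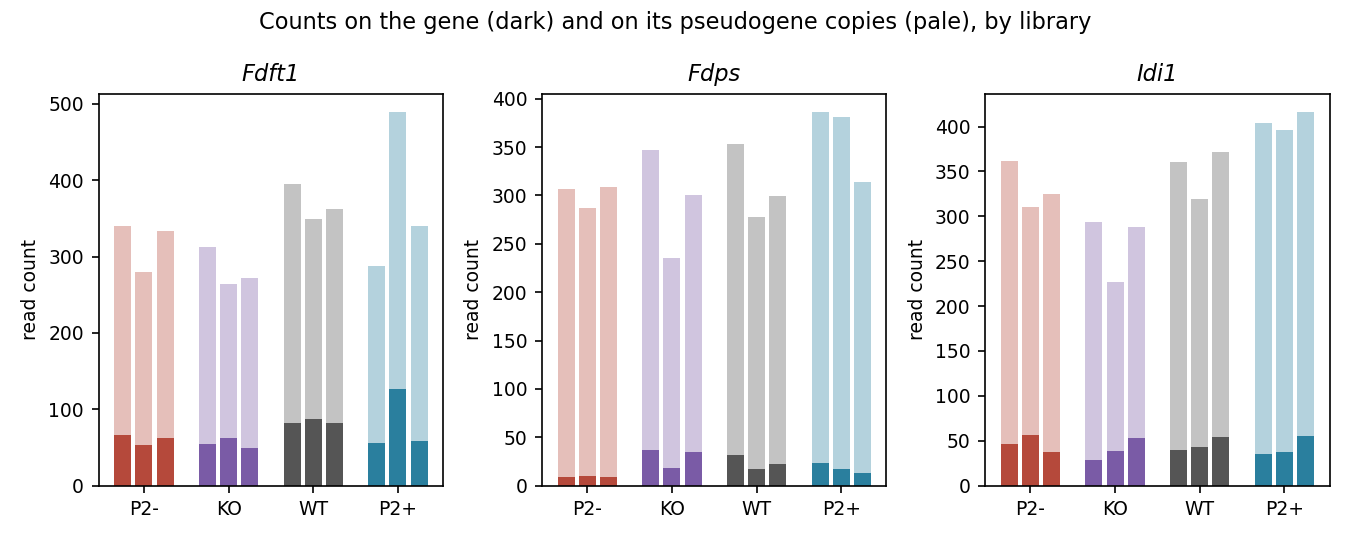
Read counts on Fdft1, Fdps and Idi1 (dark) stacked under those on their annotated pseudogene copies (pale), with 1 bar for each library of P2-, KO, WT and P2+ PreMegEs. The pale part is the larger in all 36 bars.

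Other genes of lipid metabolism were counted by 4 lists, only in fits without the library number as a block. Of 16 genes of fatty acid synthesis linked to SREBP1, 13 were tested between P2+ and P2-, 2 were higher and 3 lower, with a median log2 fold change of -0.02. Over all genes tested 20.1% were higher and 17.0% lower, so the list's counts were near those shares. Without both libraries numbered 2, 12 were tested, 2 were higher and 4 lower, beside 20.3% and 16.8% of all genes in that fit. Elovl6, an elongase, was at 111 ± 7.66 CPM in P2+ and 71.7 ± 3.26 in P2- (log2 fold change 0.64, SE 0.08, adjusted p = 0.0003). Fads1, a desaturase, was at 179.9 ± 6.46 and 145 ± 3.64 CPM (0.32, SE 0.07, adjusted p = 0.0050). Acss2, which makes acetyl-CoA from acetate, was lower in P2+, at 43.3 ± 0.490 and 66.7 ± 5.23 CPM (-0.61, SE 0.09, adjusted p = 0.0010).

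Lpin1, a phosphatidate phosphatase that also acts in the nucleus, differed most in that list. It was at 26.6, 39.3 and 32.0 CPM in P2+ and at 125, 117 and 118 in P2-, with WT at 80.7, 77.4 and 80.6 and KO at 126, 114 and 127. Its log2 fold change was -1.87 (SE 0.13, adjusted p = 1.5e-05) between P2+ and P2-, and 0.61 (SE 0.07, adjusted p = 9.9e-06) between KO and WT. KO libraries thus overlapped those of P2-. Between KO and WT, Elovl6 was lower (-0.36, SE 0.08, adjusted p = 0.0035), and these were the only 2 of 13 that passed, beside 14.9% of all genes.

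Of 16 genes that move, cut or degrade the SREBP sensor, all were tested between P2+ and P2-, 0 were higher and 3 lower, beside 20.1% and 17.0% of all genes. The unadjusted p was under 0.05 for 0 higher genes, beside 24.1% of all genes, and DESeq2 called 0 higher, beside 20.7%. Without both libraries numbered 2, 15 were tested, 1 was higher and 3 lower, beside 20.3% and 16.8% of all genes in that fit. The lower genes included those of the membrane ubiquitin ligases Rnf145 at 94.6 ± 6.88 CPM in P2+ and 168 ± 19.9 in P2- (-0.82, SE 0.10, adjusted p = 0.0003) and Rnf139 (-0.51, SE 0.08, adjusted p = 0.0013). In KO, 2 were higher than in WT, namely Rnf145 (0.31, SE 0.06, adjusted p = 0.0019) and Rnf139 (0.25, SE 0.07, adjusted p = 0.0211). The coat protein gene Sec24d was lower in KO, at 13.1 ± 0.776 against 20.7 ± 1.27 CPM (-0.66, SE 0.14, adjusted p = 0.0029). Over all genes 6.18% were higher and 8.76% lower in KO.

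Of 16 genes of sterol uptake, storage and transfer, 15 were tested between P2+ and P2-. Of these 4 were higher and 4 lower, beside 20.1% and 17.0% of all genes. Without both libraries numbered 2 the counts were the same, beside 20.3% and 16.8% of all genes in that fit. Soat1, which esterifies cholesterol for storage, was at 42.0, 34.6 and 39.3 CPM in P2+ and at 6.93, 7.59 and 5.36 in P2-, with WT at 21.8, 21.7 and 18.6 and KO at 13.4, 11.8 and 6.73. Its log2 fold change was 2.56 (SE 0.17, 5.90-fold, adjusted p = 1e-05) between P2+ and P2- and -0.96 (SE 0.20, adjusted p = 0.0024) between KO and WT. The lipoprotein receptor gene Vldlr was at 24.8 ± 1.36 CPM in P2+ and 6.05 ± 0.757 in P2- (2.04, SE 0.16, adjusted p = 2.3e-05), and lower in KO than in WT (-0.84, SE 0.20, adjusted p = 0.0087).

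Lipa, which frees cholesterol from its esters in lysosomes, had the reverse order, at 53.8 ± 5.01 CPM in P2+ and 104 ± 8.32 in P2- (-0.94, SE 0.10, adjusted p = 0.0001), and was higher in KO (0.24, SE 0.08, adjusted p = 0.0423). Gramd1c, a sterol transfer gene, was lower in P2+ (-0.93, SE 0.15, adjusted p = 0.0013). Between KO and WT 1 gene of this list was higher and 3 were lower, beside 6.18% and 8.76% of all genes.

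**Figure D5:**
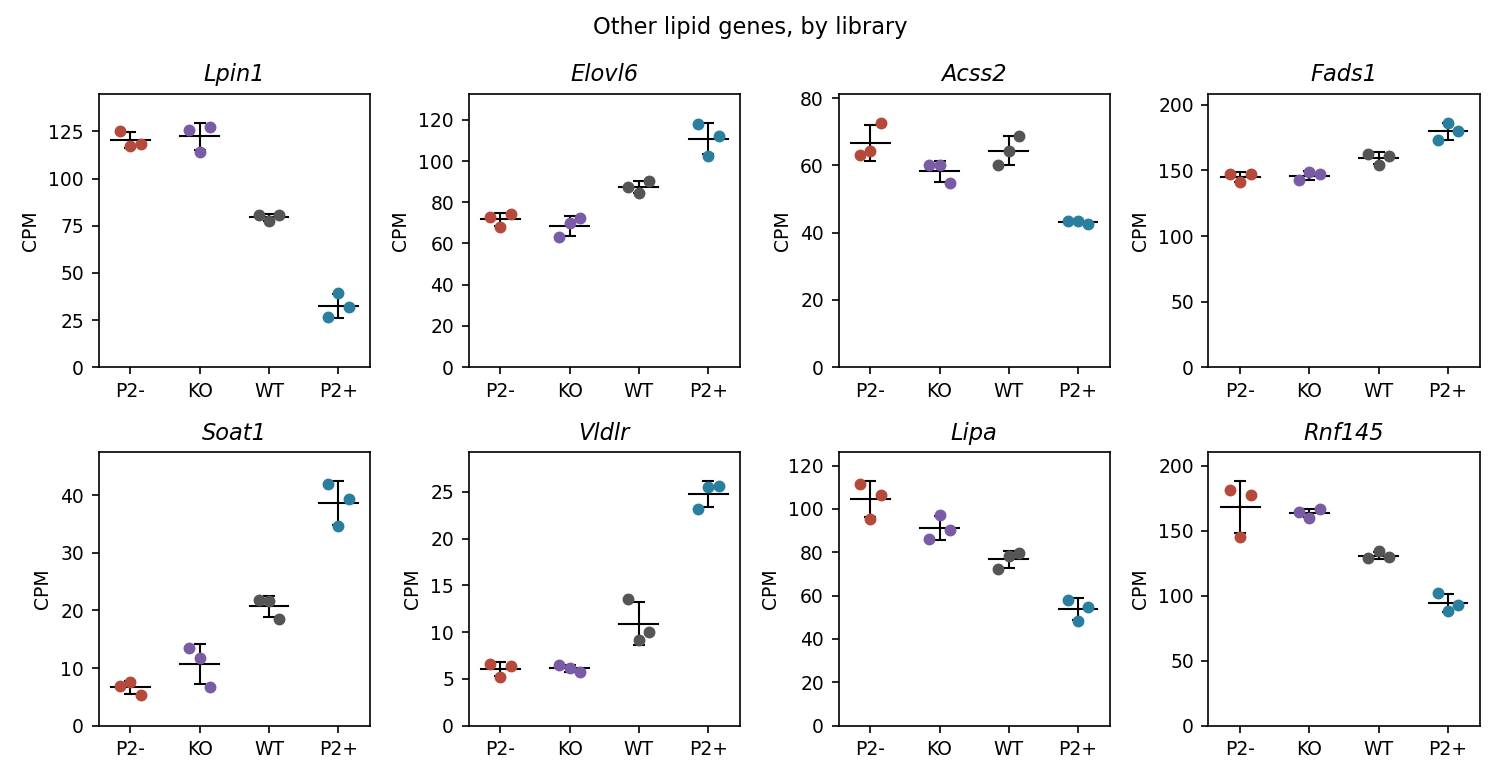
CPM of 8 lipid genes that are not members in each library of P2-, KO, WT and P2+ PreMegEs (points), with mean (bar) and SD (whiskers) of 3 libraries. Soat1 and Vldlr are highest in P2+, and Lpin1, Lipa and Rnf145 lowest.

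Of 14 genes that use isoprenoids made by the pathway for prenylation, dolichol or ubiquinone, all were tested between the fractions. P2+ had 0 higher and 3 lower, beside 20.1% and 17.0% of all genes. Without both libraries numbered 2 the counts were the same, beside 20.3% and 16.8% of all genes in that fit. With all libraries, 1 was higher and 4 lower at an unadjusted p under 0.05, beside 24.1% and 22.1% of all genes. DESeq2 there called 0 higher and 2 lower, beside 20.7% and 17.7%. The 3 lower genes were Rabggtb, a subunit of the Rab prenyltransferase (-0.81, SE 0.11, adjusted p = 0.0007), Icmt, which methylates prenylated proteins (-0.24, SE 0.07, adjusted p = 0.0249), and Pdss2, which builds the ubiquinone tail (-0.43, SE 0.15, adjusted p = 0.0467). Rabggtb and Icmt were higher in KO than in WT (0.46, SE 0.10 and 0.27, SE 0.07, with adjusted p = 0.0033 and 0.0093), beside 6.18% of all genes.

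Summed megakaryocyte and erythroid genes did not overlap between P2+ and P2- or between KO and WT. Summed cycling genes did not overlap between P2+ and P2-, and in KO lay within the range of WT. Of single genes tested, 49.9% did not overlap between P2+ and P2-, and 31.8% between KO and WT. The sum of 10 megakaryocyte genes was between 669 and 1023 CPM in P2+, between 122 and 167 in P2-, between 493 and 557 in WT and between 310 and 334 in KO. The sum of 10 erythroid genes was between 805 and 1007 CPM in P2+, between 3169 and 3751 in P2-, between 1927 and 2168 in WT and between 3001 and 3383 in KO. A list of 10 cycling genes summed to between 3572 and 3972 CPM in P2+, between 2374 and 2465 in P2-, between 2629 and 3039 in WT and between 2721 and 3037 in KO. The part of these genes in the differences of Srebf2, Stard4, Abca1 and the others was not tested.

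A list of 10 neutrophil and monocyte genes summed to between 313 and 438 CPM in P2+, between 63.8 and 157 in P2-, between 176 and 306 in WT and between 79.2 and 128 in KO. A list of 9 mast cell and basophil genes summed to between 100.4 and 157 CPM in P2+, between 31.8 and 37.6 in P2-, between 30.9 and 55.2 in WT and between 54.2 and 74.9 in KO, with at least 5 of the 9 under 1 CPM in every library of each group. Macrophage genes (10 in the table, 7 of them under 1 CPM in all P2- libraries) summed to between 13.7 and 17.3 CPM in P2+ and between 17.2 and 23.3 in P2-, with WT between 13.3 and 16.6 and KO between 12.7 and 15.5. The sum of 10 lymphoid genes was between 29.3 and 92.4 CPM in P2+, between 11.6 and 19.1 in P2-, between 27.4 and 42.2 in WT and between 20.0 and 23.4 in KO, so that P2- and KO lay below WT and P2+. Without both libraries numbered 2, P2- and P2+ did not overlap in the sums of megakaryocyte, erythroid, cycling, neutrophil and monocyte, mast cell and basophil, lymphoid and macrophage genes, the last of which was between 13.7 and 15.7 CPM in P2+ and between 17.2 and 18.2 in P2-. Their part in the results was not tested.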

How the data were processed

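PreMegEs were sorted from bone marrow as Lin- Kit+ Sca1- cells without CD16/32, CD41 and Endoglin but with CD150. The authors made strand-specific poly(A) libraries from 50 ng RNA with 16 amplification cycles, aligned paired reads to GRCm38 with Bowtie2 and counted them per Ensembl gene with featureCounts. The deposited values are raw counts per gene and library, 1 column per library. Strand setting and treatment of reads with several alignments are not given in the sources used here, and the aligner does not splice reads, so reads over exon junctions may be lost or be placed on processed pseudogenes.

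Groups came from the sample labels. Genes reaching 1 CPM in 3 or more of the 6 libraries compared were kept, scaled by TMM and tested with the quasi-likelihood F-test of edgeR 4.0.16 (R 4.3.3), two-sided, with Benjamini-Hochberg adjustment over all genes tested, whereas the authors used the exact test of edgeR. Means are given with SD over 3 libraries. Log2 fold changes are named first group minus second. Each library is a pool of mice, so p-values measure the spread between pools. Pairs of libraries of 1 group differed by a chi-square of between 4.49 and 32.8 per degree of freedom. Scripts were checked on simulated counts.

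All 28 members are reported. Those past an adjusted p of 0.05 in a comparison, or among the top 5 by CPM, are given per library. Of the 4 other lists at most 4 genes were named, those with the smallest adjusted p in P2+ against P2- or KO against WT. Members and lists were chosen with earlier results of these data known. Positions and exonic lengths came from GENCODE vM21 on GRCm38. Shared sequence was counted in 31-base words.

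P2+ and P2- libraries of the same number deviated together from their group means over genes, with correlations of between 0.386 and 0.572, so the numbers pair them. The labels do not say what the number marks. Alternatives were DESeq2 1.42.0, its size factors, upper-quartile scaling, the exact test, no filter on low counts, 12 libraries in 1 fit, the number as a block, each library left out, both P2 libraries numbered 2 left out, and members with a gene opposite them left out. Adding pseudogene counts, and leaving libraries out of the enzyme sum, the other lists and the marker sums, were chosen after seeing the data. Some genes of sterol metabolism are not reported here.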

Additional observations from a re-analysis of the deposited data

How the results depend on the processing

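Of 188 alternatives for single members past the threshold, 163 kept direction and call, 25 kept the direction only, and 0 turned it. Of 200 for counts, medians and sums, 17 moved by over 1.5 times (counts) or by 1 SD between libraries or more (medians and sums). Of the 122 for counts, 26 differed from the count reported, 15 of them by over 1.5 times. Between P2+ and P2-, leaving out 1 library gave 3 to 4 members higher, 1 to 2 lower and a median of 0.09 to 0.15, and leaving out both libraries numbered 2 gave 1 lower. With the replicate block 5 members were higher (Hmgcs1 was added) and 2 lower, a pairing that changed no other call there and gave 6514 genes in place of 4762. Between P2+ and WT, 2 members were higher with upper-quartile scaling, DESeq2 or 12 libraries in 1 fit, where Srebf2 was added, and leaving out 1 library gave 1 higher, 1 lower and a median of 0.03 to 0.16. Between P2- and WT, leaving out 1 library gave 0 to 1 higher, 1 to 4 lower and a median of -0.072 to 0.053. Between KO and WT it gave 0 higher, 0 to 2 lower and a median of -0.083 to 0.036, and the fit of all 12 libraries gave 0 lower. The cause was not tested. Over all genes, 4762 of 12836 differed between P2+ and P2-, and 3573 of 12531 without P2+ library 1. Between KO and WT 1910 differed, 1271 with 12 libraries in 1 fit and 1194 without KO library 3. Leaving out 1 WT library gave as few as 1213 of 2138 genes for P2+ and 1068 of 2101 for P2-.

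The same number did not pair P2+, P2- or KO with WT libraries (correlations of -0.0248 to 0.159, -0.0854 to 0.0696 and 0.0234 to 0.158), and the block there changed 1 call, Srebf2 between P2- and WT (adjusted p = 0.0814). The enzyme sum in P2+ was 1.11 times that in P2-, and 1.15 times with total counts in place of TMM, and in KO 0.965 times that in WT, and 0.948 times. Leaving out 1 library gave 1.07 to 1.15 and 0.940 to 1.005 times, and leaving out both libraries numbered 2 gave 1.16 for P2+. With 3 libraries a group and between 9 and 65 counts, Fdps, Idi1, Mvd and Tm7sf2 allow only large differences to be seen.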
